A study of Mus musculus with 6 samples.

Results

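Mitochondrial ribosomal proteins were taken as the protein-coding genes whose symbols start with Mrpl or Mrps followed by a number, and 76 of the 39527 genes in the authors' deposited table met that rule. The RNA came from group 2 innate lymphoid cells (ILC2s), tissue-resident lymphocytes that make type 2 cytokines, which were sorted from the lungs of mice given the alarmin IL-33 for 4 days. WT samples (3) were from R5/+ mice and KO samples (3) from R5/+ LKB1f/f mice, whose LKB1 alleles are floxed, with the cells of 3 to 4 mice pooled in each. R5 was heterozygous in both groups, IL-33 was given to both, the labels do not spell out what R5 is or what drives deletion of the floxed alleles, and no age is given. LKB1, encoded by Stk11, is a serine/threonine kinase that activates AMPK and related kinases, which adjust metabolism to the energy state of the cell.

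Mitochondria keep a ribosome of their own, the mitoribosome, which translates the few messenger RNAs of the mitochondrial genome into core subunits of the respiratory chain and of ATP synthase. Its ribosomal RNAs are transcribed inside the organelle, whereas every protein of its small and large subunits is encoded in the nucleus, made in the cytosol and imported. Some of these proteins descend from bacterial ribosomal proteins, and others are found only in mitochondria. Activated lymphocytes are known to enlarge their mitochondria and to draw on mitochondrial translation when they proliferate.

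The values used were the authors' comparison of the genotypes: per gene, 1 mean normalized count over the libraries, 1 log2 fold change and its standard error (SE), and 1 p-value adjusted over the tested genes. Values of single samples were not used here, so that no spread or overlap between samples can be given, and the SE of the fit stands in their place. Neither the column names nor the labels say which genotype was the numerator, and signs are therefore reported as deposited. In the authors' deposited table Stk11 (ENSMUSG00000003068; mm10 chr10:80115803-80130682) had a log2 fold change of -1.34 ± 0.30 (SE), an adjusted p of 0.000102557 and a mean of 652.3 normalized counts. A negative value thus has the sign of the gene that was floxed in the KO mice. Read as WT over KO, the order in which the comparison is named in the labels, it would instead put Stk11 higher in the KO samples. Genes are called here at an adjusted p below 0.05. In bulk RNA, fewer cells of a type and less RNA per cell cannot be told apart.

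The sorted cells carried the RNAs that define ILC2s: all 11 markers on a list of such genes were detected, with means from 291.2 normalized counts for Thy1 to 44552 for the transcription factor Gata3 in the authors' deposited table. Of these 11 markers, 4 were themselves called in the authors' deposited table: Il13 (-1.06 ± 0.18), Klrg1 (-0.44 ± 0.12) and Thy1 (-1.98 ± 0.75) with a negative sign and Gata3 (0.63 ± 0.16) with a positive one. Of 26 markers of other lung and blood cells, 21 had an adjusted p, 15 of those 21 were below 0 and only the macrophage complement gene C1qa was called in the authors' deposited table (-2.63 ± 0.78, adjusted p = 0.00526). Their median log2 fold change in the authors' deposited table was -0.55, with a median SE of 0.84, and the tested ones had means from 12.4 to 7594 normalized counts, the latter for the surfactant gene Sftpc. Cd8a, Siglech, Ly6g, Mcpt8 and Eomes had means below 10 and no adjusted p. The part of other cells, or of these ILC2 markers, in the values below was not tested.

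Most mitochondrial ribosomal protein genes had negative fold changes, and none was called positive. All 76 had an adjusted p, and 45 of them (59.2%) were called negative, 0 positive and 31 neither, in the authors' deposited table. Over all 14961 genes with an adjusted p, 24.5% were called, 13.5% with a negative and 11.0% with a positive sign. At an unadjusted p below 0.05, 53 of the 76 genes passed. Fold changes were below 0 in 72 members and above 0 in 4. The median over the members was -0.50 on the log2 scale, a difference of -29.2%, with quartiles at -0.64 and -0.29; over all tested genes the median was -0.01. Among the 8782 tested genes whose means lay within the range of the members' means, 16.0% were called negative and the median was -0.03.

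Under other thresholds and filters the share of members called negative stayed above that of all genes. At an adjusted p below 0.01, 30 members were called negative, where 15.8% of tested genes were called (9.0% negative, 6.79% positive). With p-values adjusted over every gene that had one, 35 members were called negative, where 7.23% of genes were called (4.03% negative, 3.2% positive). Among genes with a mean of at least 100 normalized counts, 46 of 75 members were called negative, where 35.5% of genes were called (20% negative, 15.5% positive). With the fold changes centred on the median of all tested genes 45 members were called negative, where 24.5% of genes were called (13.2% negative, 11.2% positive). Centred on the median of the most abundant 25%, 39 were, where 24.4% of genes were called (12% negative, 12.4% positive).

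The size of the difference was moderate and varied between members. Only Mrps22 and Mrps28 differed by at least 2-fold, and 25 members by at least 1.5-fold, all with a negative sign. The fold changes ran from -1.18 to 0.19 with an SD over the genes of 0.28, against a median SE of 0.17 for a single gene. Of the 31 members that were not called, 27 lay below 0, and in 8 of them the 95% interval (the fold change with its SE under a normal distribution) lay wholly below 0 before adjustment. The intervals of the uncalled members reached from -1.18 to 0.47.

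**Figure D1:**
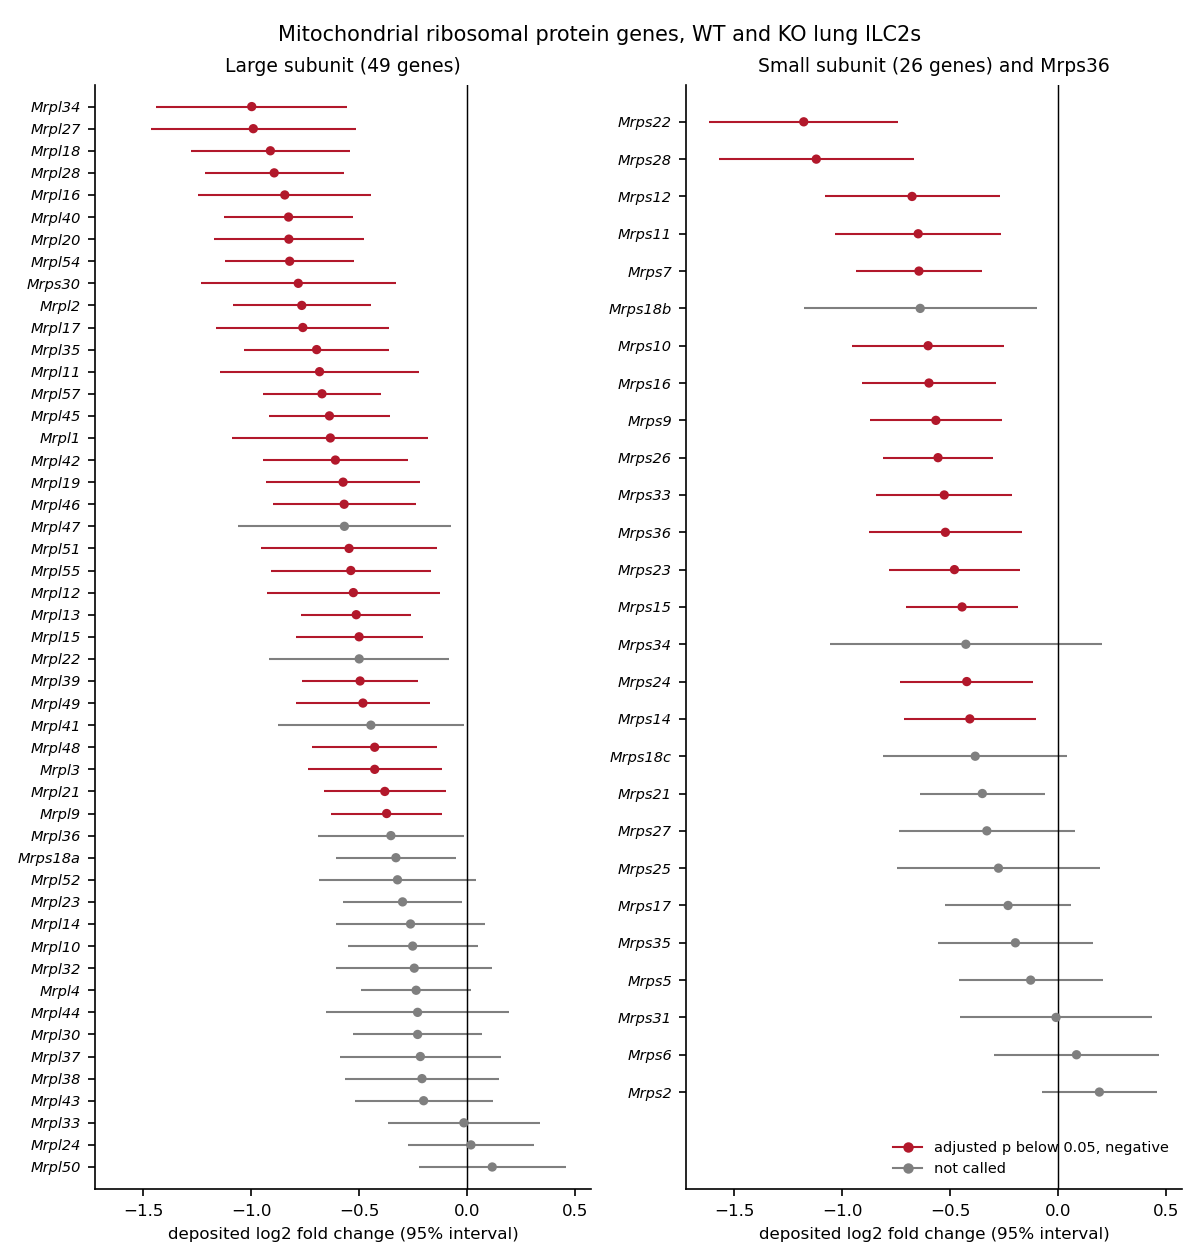
Deposited log2 fold change (x axis) of each of the 76 genes, with the large subunit on the left and the small subunit and Mrps36 on the right. Points are the authors' estimates, bars 95% intervals from the deposited SE, and red marks the 45 genes with an adjusted p below 0.05; the 4 points above 0 (Mrps2, Mrpl50, Mrps6 and Mrpl24) are all uncalled.

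As messenger RNAs the members were of middle abundance. Their means ran from 58.6 to 1975 normalized counts, with a median of 588.3, and together they made up 0.262% of the means summed over the whole of the authors' deposited table. Mean counts rise with transcript length as well as with RNA level, so levels between genes were compared per kilobase of exonic length. On that scale Mrpl54 stood highest at 919.3 normalized counts per kb, followed by Mrps21 at 857.5, Mrpl4 at 754.8 and Mrpl28 at 691.2, and Mrpl47 (27.6) and Mrps34 (28.4) stood lowest, around a median of 237.2. The proteins stand in the ribosome in equal numbers, with the stalk protein Mrpl12 as the known exception. The values per kb spanned this wide range. Exonic length here counts all annotated exons of a gene over its transcripts, so it can exceed the length of any 1 transcript. Other annotated genes overlap 37.0% (same strand) and 63.4% (opposite strand) of the exonic bases of Mrps34, and 24.2% (opposite strand) of those of Mrpl47. The part of annotation and overlap in this range was not tested. Across the 76 genes the fold change had a Spearman correlation of 0.11 with the mean count, given as a description over genes of the same libraries.

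Of the 49 large subunit members, 30 (61.2%) were called negative, with a median of -0.50. The smallest adjusted p among all members belonged to Mrpl40, a protein of the central protuberance that lies in the chromosomal region homologous to the one deleted in DiGeorge syndrome. Its log2 fold change was -0.83 ± 0.15 (SE), with an adjusted p of 1.71e-06 and a mean of 747.8 normalized counts in the authors' deposited table. Mrpl28, a relative of bacterial L28, had -0.89 ± 0.16 (adjusted p = 1.74e-06, mean 953.9), and Mrpl54, found only in mitochondria, had -0.82 ± 0.15 (adjusted p = 2.04e-06, mean 758.4), in the same deposited table of the authors. On the linear scale these 3 differences were -43.7%, -46.2% and -43.5%. Mrpl34 and Mrpl27, both small proteins with bacterial relatives, had the most negative values of the large subunit, -0.998 ± 0.23 (adjusted p = 0.000145072) and -0.99 ± 0.24 (adjusted p = 0.000523238) in the authors' deposited table. Bacterial L27 reaches with its N-terminal tail into the peptidyl transferase centre, where peptide bonds form. Mrpl2, whose bacterial relative L2 helps to shape the same centre, had -0.77 ± 0.16 (adjusted p = 5.18e-05) in the authors' deposited table. Mrpl20 was at -0.83 ± 0.18 (adjusted p = 5.55e-05) and the mitochondria-specific Mrpl57 at -0.67 ± 0.14 (adjusted p = 3.07e-05), again from the authors' deposited table.

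Each of 3 named parts of the large subunit held both called and uncalled members. In the stalk, which recruits the translation factors, 2 of 3 members were called in the authors' deposited table: Mrpl11 (-0.68 ± 0.23, adjusted p = 0.018845) and Mrpl12 (-0.53 ± 0.20, adjusted p = 0.0415), while Mrpl10, which holds the Mrpl12 copies, was at -0.25 ± 0.15 (adjusted p = 0.236). Of the 5 members of the central protuberance, the part of the large subunit that faces the head of the small subunit, 4 were called in the authors' deposited table: Mrpl18 (-0.91 ± 0.19), Mrpl40, Mrpl46 (-0.57 ± 0.17) and Mrpl48 (-0.43 ± 0.15). The remaining one, Mrpl38, had -0.21 ± 0.18 (adjusted p = 0.443) in the authors' deposited table. The exit of the peptide tunnel is where the nascent chain leaves towards the inner membrane. Of the 6 members listed for it, 2 were called in the authors' deposited table. They were Mrpl45, which tethers the ribosome to the inner membrane (-0.64 ± 0.14, adjusted p = 0.000135025), and Mrpl39 (-0.50 ± 0.14, adjusted p = 0.00259), by the authors' deposited table. Mrpl22, Mrpl23 and Mrpl44 were at -0.50, -0.30 and -0.23 without passing the test, and Mrpl24 was at 0.02 (adjusted p = 0.952) in the same deposited table of the authors. The groups as listed hold 3 to 6 genes each and may leave out other members at these places. Differences between the groups were not tested.

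Of the 26 small subunit members, 14 (53.8%) were called negative, with a median of -0.44. The 2 most negative values of all members were here. Mrps22, a mitochondria-specific protein, had -1.18 ± 0.22 in the authors' deposited table (SE; adjusted p = 4.01e-06), a linear difference of -55.8%, at a mean of 195.2 normalized counts. Mrps28, which takes the place of bacterial S1 next to the messenger RNA, had -1.12 ± 0.23 (adjusted p = 2.65e-05), or -54.0%, at a mean of 355.0 in the authors' deposited table. Mrps7, which with its bacterial relative S7 belongs to the head of the subunit near the transfer RNA exit, had -0.65 ± 0.15 (adjusted p = 0.000208417) at a mean of 1118 in the authors' deposited table. Mrps12, the relative of the decoding centre protein S12, had -0.68 ± 0.21 (adjusted p = 0.00717) in the same deposited table of the authors. Mrps14, the small subunit member with the highest mean (1278 normalized counts), was called with a smaller value of -0.41 ± 0.16 (adjusted p = 0.0376) in the authors' deposited table.

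Members without a call included some of the most and the least abundant ones. Mrpl4 had the highest mean of all, 1975 normalized counts, and a fold change of -0.24 ± 0.13 (adjusted p = 0.181) in the authors' deposited table. Mrpl37 (mean 1192) and Mrpl32 (mean 1109) were at -0.22 ± 0.19 and -0.25 ± 0.18, also uncalled, in the authors' deposited table. The most positive value, 0.19 ± 0.14 (adjusted p = 0.332), belonged to Mrps2, the relative of bacterial S2, with a 95% interval that included 0, by the authors' deposited table. Mrpl50 (0.12 ± 0.17), Mrps6 (0.08 ± 0.20) and Mrps31 (-0.01 ± 0.23) lay near 0 in the authors' deposited table. At the low end, Mrps34 had a mean of 58.6 and -0.43 ± 0.32 (adjusted p = 0.357), where the SE is about the size of the difference, in the authors' deposited table. Mrpl47 (mean 122.0; -0.57 ± 0.25, adjusted p = 0.0822) missed the threshold with a fold change beyond the median of the members, by the authors' deposited table.

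The symbols of a few members do not match where their proteins act. Mrps30, despite its name, is a protein of the large subunit and was counted there (-0.78 ± 0.23, adjusted p = 0.00504, in the authors' deposited table). Mrps36 is known as a subunit of the 2-oxoglutarate dehydrogenase complex and was counted in neither subunit (-0.52 ± 0.18, adjusted p = 0.0201, in the authors' deposited table). The 3 relatives of bacterial S18 are known to occupy different places: Mrps18c stands at the bacterial position, Mrps18b elsewhere in the small subunit and Mrps18a in the large subunit. None of the 3 was called in the authors' deposited table, at -0.38 ± 0.22, -0.64 ± 0.28 and -0.33 ± 0.14 in that order, with adjusted p-values of 0.196, 0.0737 and 0.0717. Members were also split by whether the bacterial ribosome has a counterpart at the same place, with Mrps18a and Mrps18b counted as having none. Of the 46 with a counterpart 29 were called negative (median -0.51), and of the 29 subunits without one 15 were (median -0.48).

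Proteins of the mitoribosome with other names were described next, since the rule on symbols leaves them out. Of 6 such genes, 4 were called negative and none positive in the authors' deposited table, with a median of -0.56. Dap3, a GTP-binding protein of the small subunit first described in cell death, had -0.62 ± 0.13 (adjusted p = 2.32e-05) in the authors' deposited table, and Chchd1 had -0.75 ± 0.17 (adjusted p = 0.000113651). Mrpl58, listed as Ict1, a subunit that frees stalled chains by cutting peptidyl-tRNA, had -0.70 ± 0.19 (adjusted p = 0.00198) in the authors' deposited table, and Aurkaip1 had -0.40 ± 0.13 (adjusted p = 0.0169). Gadd45gip1 (-0.49 ± 0.22, adjusted p = 0.0884) and Ptcd3 (-0.09 ± 0.13, adjusted p = 0.656) were not called in the authors' deposited table.

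Factors that work with the mitoribosome were described next to its proteins, and differences between these lists and the members were not tested. Of 62 tested genes for translation factors, ribosome assembly, aminoacyl-tRNA synthesis and the 6 subunits above, 16 (25.8%) were called negative and 0 positive. Their median was -0.15 in the authors' deposited table, and over all tested genes 13.5% were called negative and 11.0% positive. Among 15 tested translation factors 5 were called, all negative, with a median of -0.41. Elongation carried 3 of these calls in the authors' deposited table: Gfm1, the translocase, at -0.78 ± 0.16 (adjusted p = 3.29e-05), Tsfm, the exchange factor, at -0.87 ± 0.22 (adjusted p = 0.000727311), and Tufm, which delivers aminoacyl-tRNA, at -0.43 ± 0.16 (adjusted p = 0.0298). The recycling factor Mrrf had -0.70 ± 0.23 (adjusted p = 0.0133), and Oxa1l, which inserts new chains into the inner membrane, had -0.62 ± 0.18 (adjusted p = 0.00458), in the authors' deposited table. The initiation factor gene Mtif2 was at 0.40 ± 0.18 (adjusted p = 0.0918), uncalled, in the authors' deposited table.

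Of 24 assembly and rRNA modification genes, 4 were called, all negative (16.7%, against 13.5% of all tested genes), with a median of -0.08. These were the GTPase gene Noa1 (-0.58 ± 0.17, adjusted p = 0.00529), Mpv17l2 (-0.46 ± 0.17, adjusted p = 0.0264), the small subunit assembly factor Rbfa (-0.37 ± 0.14, adjusted p = 0.0425) and the RNA-binding protein Fastkd2 (-0.51 ± 0.20, adjusted p = 0.0491), in the authors' deposited table. Of 17 mitochondrial aminoacyl-tRNA synthetases, 3 were called negative, among them Sars2 (-0.53) and Yars2 (-0.54), and the median of the 17 was -0.09 in the authors' deposited table. Above 0 lay 11 of the assembly genes and 4 of the synthetases, none of them called.

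Among the RNAs that the organelle itself makes, neither mitochondrial rRNA was called: mt-Rnr1, of the small subunit, had -0.25 ± 0.18 (adjusted p = 0.324) and mt-Rnr2, of the large subunit, had -0.04 ± 0.16 (adjusted p = 0.899) in the authors' deposited table. Among the mitochondrial messenger RNAs 12 were tested and 6 called, all negative, with a median of -0.42. Over all tested genes 13.5% were called negative and 11.0% positive. The smallest adjusted p was that of mt-Cytb, a core subunit of complex III, at -0.59 ± 0.11 (adjusted p = 1.53e-06), followed by the complex I subunits mt-Nd4 (-0.51 ± 0.14) and mt-Nd1 (-0.41 ± 0.12) in the authors' deposited table. The difference between the rRNAs and the messenger RNAs was not tested. Among 8 genes of mitochondrial DNA transcription and replication, 1 was called negative (12.5%, near the share of all tested genes) and 2 positive. Tfam, which packages and transcribes the mitochondrial genome, had the negative call in the authors' deposited table (-0.52 ± 0.18, adjusted p = 0.0169). The DNA polymerase gene Polg (0.69 ± 0.15, adjusted p = 9.51e-05) and the RNA polymerase gene Polrmt (0.37 ± 0.15, adjusted p = 0.0481) were called positive in the authors' deposited table.

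The ribosome of the cytosol was set beside the members, with a list of its proteins added after the members' values had been seen. Of 80 tested cytosolic ribosomal protein genes, 48 (60.0%) were called negative and 0 positive in the authors' deposited table, against 45 of 76 for the mitochondrial ones, and the median was -0.38 against -0.50. Rps2 (-1.03 ± 0.13, adjusted p = 1.29e-12) and Rpl3 (-0.68 ± 0.12, adjusted p = 8.57e-07) were among the cytosolic genes called in the authors' deposited table. Negative calls at such a share were thus not particular to mitochondrial ribosomal proteins. The difference between both sets of genes was not tested.

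**Figure D2:**
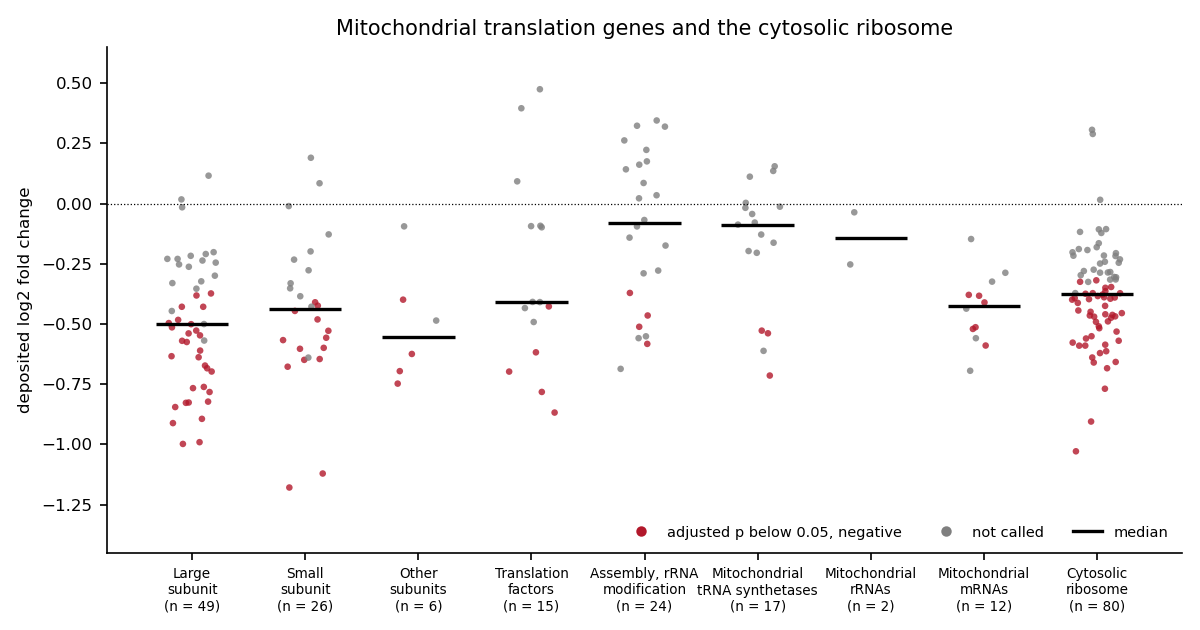
Deposited log2 fold change (y axis) of each tested gene, in columns for the mitoribosome subunits, their partners, the RNAs of the mitochondrial genome and the cytosolic ribosome, with the number of genes under each. Red points have an adjusted p below 0.05 with a negative sign, grey points were not called and black lines are medians; no gene shown was called positive, and the medians of assembly factors (-0.08) and synthetases (-0.09) lie closest to 0.

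The members were short in exonic length, and in this comparison the fold change moved with that length. Over 13036 protein-coding genes, the Spearman correlation between fold change and exonic length was 0.26, given as a description over genes that share libraries. In the shortest 25% of tested protein-coding genes (up to 2878 bases) 23.6% were called negative and the median was -0.24, and in the longest 25% these values were 6.93% and 0.15. The members had a median exonic length of 2394 bases against 4586 for protein-coding genes, 44 of the 76 fell in the shortest 25%, and 7 in the longest. Among the members themselves the correlation with exonic length was 0.17, and with coding length 0.04.

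After the trends of the fold change on exonic length and on GC content had been removed, 27 of the 76 members were called negative and 0 positive, and all 27 were among the 45 called before. Over all 13036 genes of that calculation 22.7% were called, 11.5% with a negative and 11.2% with a positive sign. The median of the members was then -0.30 and 66 of the 76 lay below 0, with 20 large and 7 small subunit members called. The 18 calls that were lost were those of Mrpl1, Mrpl9, Mrpl11, Mrpl12, Mrpl21, Mrpl39, Mrpl46, Mrpl49, Mrpl51, Mrpl55, Mrps11, Mrps12, Mrps14, Mrps15, Mrps23, Mrps24, Mrps33 and Mrps36, and those of Mrps22, Mrpl40, Mrpl28 and Mrpl54 were kept. The part of exonic length in the values as deposited was otherwise not tested.

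**Figure D3:**
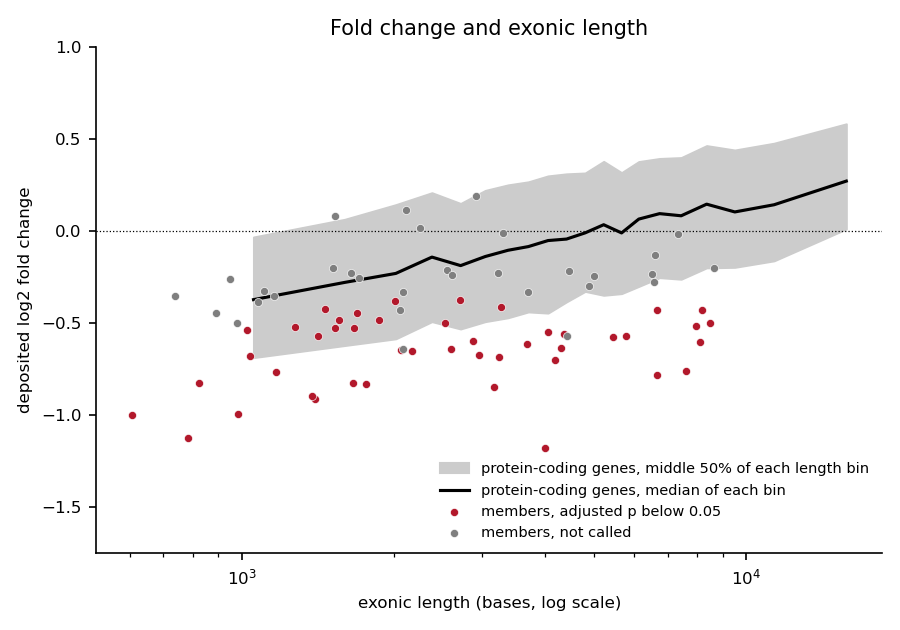
Deposited log2 fold change (y axis) against exonic length (x axis, bases, log scale). The black line and grey band are the median and middle 50% of protein-coding genes in 20 length bins, and the points are the 76 members, red where called and grey where not; most points lie below the black line at their own length.

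Promoters of mitochondrial ribosomal protein genes are known to lack a TATA box and often to hold sites for NRF1, for the ETS family factor GABP and for YY1, which also serve genes of the respiratory chain. RefSeq promoter windows (assembly GRCm38.p6), each from 250 bases before to 50 bases after an annotated start, were found for 67 of the 76 members, in 73 windows. The 150 bases before the start are shown for genes whose windows carry the motifs counted below, with the matches in capitals, and for Mrpl40, the member with the smallest adjusted p, whose stretch has none. The Mrps22 stretch (chr9:98601680-98601829, minus strand) and the Mrpl34 stretch (chr8:71464776-71464925, plus strand) each hold an ETS and a ZNF143 match. The Mrpl27 stretch (chr11:94653641-94653790, plus strand) holds an ETS match. Mrpl45 (chr11:97315566-97315715, plus strand) has NRF1 matches at 2 places, and Mrpl57 (chr14:57826089-57826238, plus strand) and Mrpl17 (chr7:105811088-105811237, minus strand) have 1 each. The full windows, used for the counts below, also hold YY1 letters at Mrpl27 and ETS letters at Mrpl57 and Mrpl17. Mrps11 (chr7:78782981-78783130, plus strand) has a YY1 match on the reverse strand, and the Mrpl40 stretch is chr16:18876638-18876787 on the minus strand. That stretch lies within the Mrpl40 gene as annotated in GENCODE M21 (chr16:18872018-18876862). The bases before the GENCODE start are therefore not in it. Each stretch of 150 bases is written 5′ to 3′ on the strand of its gene and ends at the base before the RefSeq start.
Mrps22: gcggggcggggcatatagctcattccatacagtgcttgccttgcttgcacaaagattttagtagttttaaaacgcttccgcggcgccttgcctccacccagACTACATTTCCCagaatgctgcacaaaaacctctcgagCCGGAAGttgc
Mrpl34: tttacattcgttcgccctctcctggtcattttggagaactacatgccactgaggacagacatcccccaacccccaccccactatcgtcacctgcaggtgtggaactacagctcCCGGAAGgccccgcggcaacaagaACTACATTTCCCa
Mrpl27: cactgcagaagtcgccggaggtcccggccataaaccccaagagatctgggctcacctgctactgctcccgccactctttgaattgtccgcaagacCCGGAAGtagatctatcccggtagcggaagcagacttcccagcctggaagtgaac
Mrpl45: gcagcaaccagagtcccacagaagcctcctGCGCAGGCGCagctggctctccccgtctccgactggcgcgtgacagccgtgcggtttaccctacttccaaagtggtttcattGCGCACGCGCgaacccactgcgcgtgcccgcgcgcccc
Mrpl57: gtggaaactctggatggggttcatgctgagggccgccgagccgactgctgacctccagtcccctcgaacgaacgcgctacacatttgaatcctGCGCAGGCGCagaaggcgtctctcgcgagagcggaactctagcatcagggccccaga
Mrpl17: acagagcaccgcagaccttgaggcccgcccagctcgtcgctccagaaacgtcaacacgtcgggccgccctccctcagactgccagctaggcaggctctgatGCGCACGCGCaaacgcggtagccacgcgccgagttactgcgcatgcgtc
Mrps11: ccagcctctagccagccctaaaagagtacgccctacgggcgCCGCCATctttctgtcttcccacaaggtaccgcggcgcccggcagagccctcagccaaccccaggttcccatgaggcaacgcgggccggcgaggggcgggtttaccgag
Mrpl40: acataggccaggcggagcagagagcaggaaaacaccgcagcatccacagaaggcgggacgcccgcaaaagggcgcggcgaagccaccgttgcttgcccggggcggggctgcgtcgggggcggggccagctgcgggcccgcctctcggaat

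The motifs were searched as fixed letters on both strands: GCGCA and GCGC with any 1 base between them for NRF1, CCGGAAG for ETS factors, ATGGCGG for YY1, AAGGTCA for the ERR receptors and CACGTG for the E-box bound by MYC. ACTACA and TTCCC with any 1 base between them, a motif of ZNF143, was added after the windows had been seen. ETS letters were present in 32.9% of the members' windows, against 16.5% of the 12801 windows of tested protein-coding genes and 8.86% of all 32851 windows of the same length. NRF1 letters were present in 17.8% against 9.44% and 4.60%, and YY1 letters in 16.4% against 7.40% and 4.05%. The ERR motif (5.48% against 3.17% and 4.72%) and the E-box (9.59% against 9.45% and 7.15%) stood closer to the other genes. ZNF143 letters were found at Mrps22, Mrpl34 and Mrpl50, in 4.11% of the members' windows against 1.95% and 0.947%. The median GC content was 58.3% in the members' windows, 60.3% in those of tested genes and 52.7% in all. These shares are descriptions, and a match shows letters, not binding.

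Members with and without a motif had similar fold changes for NRF1 and ETS. Of the 13 members with NRF1 letters 8 were called (median -0.50), and of the 54 without 32 were called (median -0.49). With ETS letters 15 of 24 were called (median -0.51), and without them 25 of 43 (median -0.48). With YY1 letters 5 of 12 were called (median -0.35), and without them 35 of 55 (median -0.52). The differences between these groups were not tested. Of the genes for the factors themselves, Nrf1 (-0.11 ± 0.15, adjusted p = 0.660), Gabpa (0.01 ± 0.13, adjusted p = 0.985) and Yy1 (-0.19 ± 0.17, adjusted p = 0.462) were not called in the authors' deposited table. Gabpb1, the partner subunit of GABPA, was called negative (-0.54 ± 0.14, adjusted p = 0.00161), and Myc (1.10 ± 0.21, adjusted p = 3.19e-06) and the coactivator gene Ppargc1b (0.77 ± 0.26, adjusted p = 0.0180) were called positive, in the authors' deposited table.

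**Figure D4:**
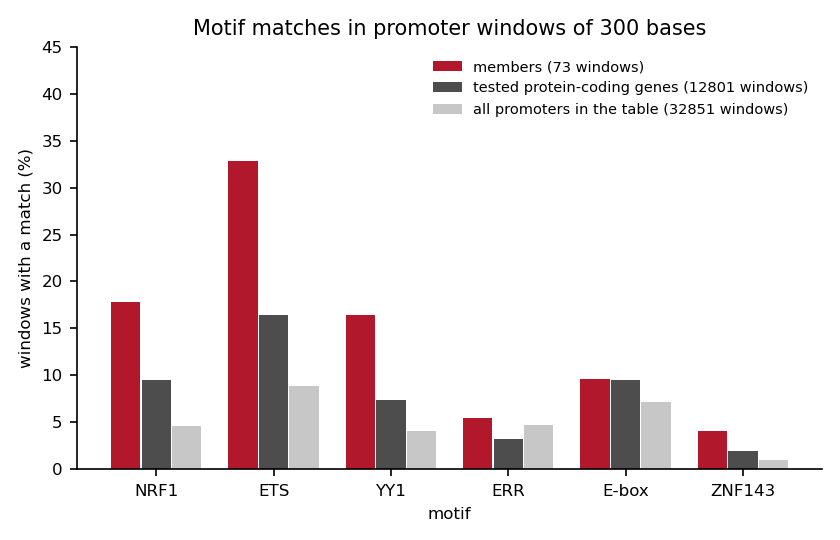
Share of promoter windows of 300 bases with at least 1 match (y axis, percent) for 6 motifs (x axis), in the members (73 windows), in tested protein-coding genes (12801 windows) and in all windows (32851). The members' bars are highest for ETS (32.9%), NRF1 (17.8%) and YY1 (16.4%).

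Many mitochondrial ribosomal protein genes share a promoter region with a neighbour on the opposite strand. A divergent partner, a protein-coding gene on the other strand whose start lies within 1000 bases upstream or overlaps by at most 500 bases, was found for 26 of the 76 members (34.2%) and for 1809 of 13042 tested protein-coding genes (13.9%). Mrpl46 and Mrps11, of the large and the small subunit, are each other's partner on chromosome 7 and overlap by 412 bases at their 5′ ends. Both were called in the authors' deposited table, at -0.57 ± 0.17 and -0.65 ± 0.20. Reads from overlapping stretches may not be separable between strands, since no source used here says how strand was handled.

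The other partners did not follow the members as a group. Of 23 tested partners outside the family, 7 were called negative and 5 positive in the authors' deposited table, with a median of 0.07. Over all tested genes 13.5% were called negative and 11.0% positive, so calls of either sign were more frequent among these partners. Partners with a negative call in the authors' deposited table were Eme1 beside Mrpl27 (-1.23 ± 0.28), Ska3 beside Mrpl57 (-1.27 ± 0.27), Ncapd2 beside Mrpl51 (-1.02 ± 0.19) and Mtbp beside Mrpl13 (-1.16 ± 0.25), genes of DNA repair, kinetochore attachment, chromosome condensation and MDM2 binding. The further ones were Sars2 beside Mrps12, Psma2 beside Mrpl32 and Ndufs6 beside Mrpl36. Partners with a positive call in the authors' deposited table were Klc4 beside Mrpl2 (0.47 ± 0.17), Ighmbp2 beside Mrpl21 (0.53 ± 0.21), Wdfy1 beside Mrpl44 (1.09 ± 0.29), Zfp189 beside Mrpl50 (0.99 ± 0.31) and Pnpla7 beside Mrpl41 (0.49 ± 0.15). At Mrpl2 and Mrpl21 the 2 genes of a pair were thus called with opposite signs. Members with a partner were called in 13 of 26 cases (median -0.46) and members without one in 32 of 50 (median -0.50).

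**Figure D5:**
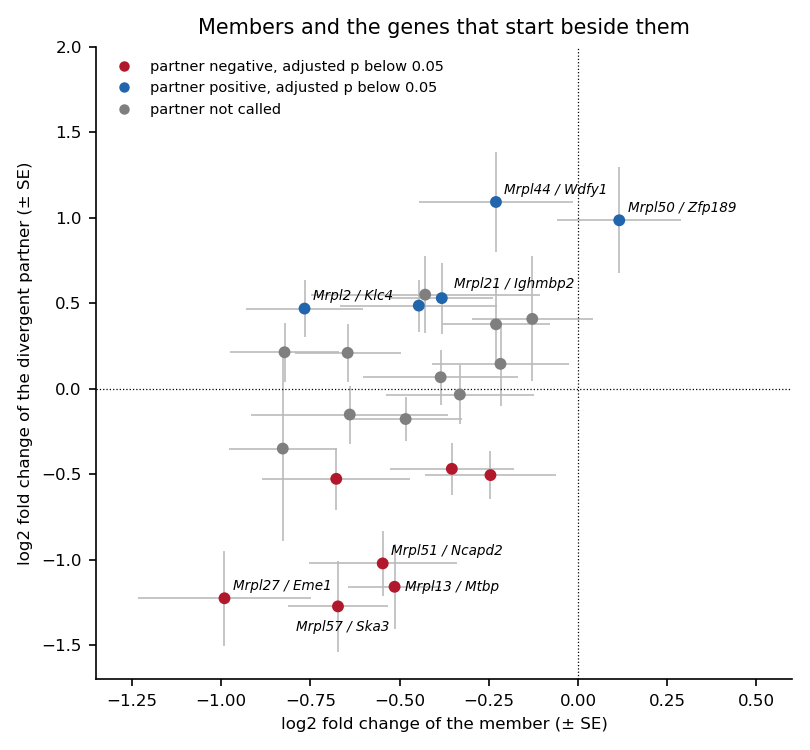
Deposited log2 fold change of the divergent partner (y axis) against that of the member (x axis) for the 23 pairs whose partner was tested and is no member, with bars of 1 SE. Red partners were called negative (7), blue ones positive (5) and grey ones neither; the members lie mostly left of 0, whereas the partners spread from -1.27 to 1.09.

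Some members share bases with other genes, so their counts are less certain. Exons of 31 members overlap those of another annotated gene, and in 9 members at least 20% of exonic bases do: Mrpl19, Mrpl24, Mrpl43, Mrpl47, Mrps18b, Mrps18c, Mrps25, Mrps27 and Mrps34. Of these only Mrpl19 was called in the authors' deposited table. Near-identical copies (at least 95% identity over at least 50% of a transcript) exist for Mrpl22, Mrpl27, Mrps18b, Mrps21, Mrps25 and Mrps34, of which only Mrpl27 was called. For Mrps18b, Mrps25 and Mrps34 the matching sequence lies in the overlapping genes Gm16279, Nr2c2 and Mapk8ip3. The 52 members with less than 5% overlap had 33 negative calls and a median of -0.51, and the 70 members without a copy had 44.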

How the data were processed

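RNA sequencing compared 3 WT with 3 KO pools of lung ILC2s. Per the labels' protocols, cDNA was made with the SMART-Seq HT kit and libraries with TruePrep V2. HISAT2, Cufflinks and mm10 are named in the submitters' processing notes, with counting, annotation and strand handling not given in the sources used here. In the deposited table stand, per the file headers, the authors' mean normalized count (a signal over their libraries), log2 fold change, its SE, test score, p-value and adjusted p-value. The headers match a DESeq2 results table of the authors, per the file headers, but neither the tool nor the libraries of the fit are stated, and more libraries than the 6 samples may be in it. Separate pools are the replicates among the 6 samples, and each p-value sets a fold change against its SE in the authors' fit.

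The deposited score equalled the log2 fold change over its SE to within 2.4e-07. Adjusted p-values existed for 14961 genes, all with means of at least 10.46 normalized counts. Another 12 columns, with values per sample under 6 names, could be tied to none of the samples and were not used, so the count test planned for single samples was replaced by the authors' comparison, and depth per sample was not used here.

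The members and gene lists were chosen with earlier results of these data known. Stk11 was named, and among the members the 12 smallest adjusted p-values, the 5 highest and 5 lowest means, the 5 most positive and 5 most negative fold changes, the stalk, central protuberance and exit tunnel, the Mrps18 relatives, Mrps30 and Mrps36; in other lists up to 5 called genes were named. A gene that the rule selects is not reported here. Mtif2, Mrps12, Rps2, Rpl3, partner genes with their members, and members named for overlaps, copies, lost calls or levels per kb were named after their values were seen.

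Lengths, GC content and coordinates came from GENCODE M21 (mm10), in which 99.3% of gene identifiers were found. Lowess trends (span 0.3) on length, then GC, were removed from the fold changes, and p-values were recomputed from the deposited SE and adjusted by Benjamini-Hochberg. This step was tested on simulated data with 200 changed genes among 13036. It recovered 25.7% of true log2 changes of 0.5, 60.0% of those of 1.0 and 85.0% of those of 2.0. On average 7.2 unchanged genes were called, against 173.0 with these added trends kept. In the simulation a true change near 0.5 was thus often left uncalled. After trend removal 22.7% of the measured genes were called, a larger share than was changed in the simulation. The recovered shares and false calls therefore need not hold for the measured genes. Copies were found with BLAST+ 2.17.0, and promoter windows were matched by symbol. Python 3.11.15, pandas 2.3.3, scipy 1.17.1 and statsmodels 0.14.6 were used.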

Additional observations from a re-analysis of the deposited data

How the results depend on the processing

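Members called negative numbered 30 at an adjusted p below 0.01, where 9.0% of tested genes were called negative, 35 with no filter on low means, 46 with means of at least 100 normalized counts, and 45 and 39 when the fold changes were centred on the median of all tested genes (-0.0056) or of the most abundant 25% (-0.037). With the length and GC trends removed, 27 members and 7 small subunit members were called, where 11.5% of genes were called negative, and the members' median was -0.30. Large subunit calls numbered 19 at an adjusted p below 0.01. Negative calls among other mitochondrial translation genes numbered 16 of 62, where 13.5% of all tested genes were called negative. They numbered 8 of 62 at an adjusted p below 0.01 (9.0% of all genes). With no filter they numbered 10 of 63 (4.03%), and with the trends removed 10 of 61 (11.5%). A further 2 of these genes were called positive with the trends removed, and 2 on centring to the most abundant 25%, where 12 were called negative. Among the 39 named members, trend removal turned the sign of uncalled Mrpl44 (0.017), Mrps18c (0.0048) and Mrps31 (0.15). Centring on the most abundant 25% turned that of Mrps31 (0.027) among them. Outside these 39, trend removal also turned the sign of uncalled Mrpl14 (0.0045), Mrpl43 (0.062) and Mrps21 (0.021). Of 39 named members, the calls of Mrpl12 and Mrps14 were lost also at an adjusted p below 0.01, with no filter and on centring to the most abundant 25%. Mrps36 lost its call at 0.01 and with no filter, and Mrpl11 and Mrpl48 lost theirs at 0.01. The causes were not tested.

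No paired analysis was possible because the names of the columns with values of single samples match no label, so that they were not used. Leaving out single replicates was not run for the same reason. The SE of a gene limits what can be called: at a median SE of 0.17, many members with differences near the median stay close to the threshold.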
